A study of Mus musculus with 12 samples.

Results

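The nuclear-encoded subunits of the oxidative phosphorylation complexes were followed in mouse lungs taken whole on embryonic day 15.5 (E15.5), with and without conditional deletion of Tgfbr2, the gene of a receptor subunit for the growth factor TGF-beta. Members were found by gene name, with symbols of the Nduf, Sdh, Uqcr, Cox and Atp5 subunit families and without pseudogene symbols, and gave 82 of the 47069 genes in the count table: 36 of complex I, 4 of complex II, 8 of complex III, 18 of complex IV and 16 of complex V. RNA was sequenced from 3 wild-type lungs (WT) and 3 lungs with the conditional knockout (CKO), each in 2 runs. The CKO lungs were Tgfbr2lox/flox or Tgfbr2flox/flox in the labels' spelling, with Tbx4-rtTA and Teto-Cre, a doxycycline-dependent Cre that the study describes as specific to lung mesenchyme. The WT lungs are labelled wild type, and their transgenes are not stated. Per the labels, all animals were C57BL/6, came from crosses of Tgfbr2 flox with Tbx4-rtTA/TetO-Cre mice, and were exposed from E6.5 until collection to doxycycline in drinking water, at 1 mg/ml, and in food. The labels do not say whether lungs of a group shared a litter, so p-values reflect only how these lungs vary.

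Oxidative phosphorylation takes place at the inner mitochondrial membrane. Complexes I (NADH dehydrogenase) and II (succinate dehydrogenase) pass electrons to ubiquinone, complex III passes them on to cytochrome c, and complex IV (cytochrome c oxidase) passes them to oxygen. Complexes I, III and IV pump protons, and complex V, the ATP synthase, uses the returning protons to make ATP. The complexes other than complex II combine subunits encoded in the nucleus with a few encoded in mitochondrial DNA, and several complex IV subunits exist as alternative isoforms made in particular tissues.

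Gene counts summed to between 31983717 and 51572845 per lung, and the members took 0.896% to 0.987% of them. Replicate 1 of both groups carried high Xist counts and almost no Y-linked counts, and the other 4 lungs carried Y-linked counts. Tgfbr2 itself had a mean of 211 ± 16.7 CPM in the WT group against 225 ± 13.1 in the CKO group (SD, n = 3 each; edgeR quasi-likelihood adjusted p = 0.453). A count over the whole gene does not check the deletion of its floxed part, nor does a whole lung in which other cells keep the gene. Lung epithelial genes were present in all lungs, with Nkx2-1 at 260 to 333 CPM, and so was the mesenchymal gene Tbx4 at 225 to 261 CPM. CPM denotes a count scaled to a common effective library size, and in whole lungs fewer cells of a type and less RNA per cell cannot be told apart.

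The counts of Cox7a2l and Ndufs5 have to be read beside those of a near-identical copy, and the sequences are shown first. Each pair is a member and a processed pseudogene elsewhere in the genome that is nearly identical to it, read from the GENCODE transcripts on GRCm38, with the differing bases in capitals. Cox7a2l encodes a protein that joins complexes III and IV into supercomplexes, also called SCAF1. The stretch shown lies in a coding exon on chromosome 17, chr17:83502696-83502737, minus strand, and the matching stretch of its copy Gm6969 lies at chr12:24638762-24638809, minus strand.
Cox7a2l: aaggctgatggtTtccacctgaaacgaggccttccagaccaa
Gm6969: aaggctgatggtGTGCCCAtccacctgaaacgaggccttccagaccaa
The copy matched the 336 bases of the Cox7a2l coding sequence at 334 positions. It differed by the substitutions T214A and C303T, counted from the first base of the start codon, with the Cox7a2l base first, and held 6 bases, a multiple of the codon length, that the reference Cox7a2l lacks. As background, C57BL/6 mice are known to carry a Cox7a2l allele that is shorter by a pair of codons than the allele of many other strains. Which allele each lung carried was not analysed here.

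Ndufs5 encodes an accessory subunit of complex I. The stretch of Ndufs5 shown is exonic, at chr4:123715946-123716029, minus strand, and that of its copy BC002163 is at chr16:42955681-42955764, plus strand.
Ndufs5: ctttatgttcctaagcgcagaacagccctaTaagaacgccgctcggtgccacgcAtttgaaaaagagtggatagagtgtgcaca
BC002163: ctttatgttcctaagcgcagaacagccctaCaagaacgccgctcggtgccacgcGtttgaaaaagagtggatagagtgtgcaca
Over the 319 bases of the copy, Ndufs5 and BC002163 differed at 2 positions, T81C and A105G, counted from the first aligned base with the Ndufs5 base first.

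Most subunit genes were highly expressed, and their levels spread widely within complexes I, IV and V and less within complexes II and III. Per kilobase of merged exons, the median WT mean of a complex's tested members was 43.1 CPM for complex I and 60.9 for complex II. It was 76.3 for complex III, 58.5 for complex IV and 80.04 for complex V. The 4 complex IV members below the minimum count for testing are left out of this median. With them, the middle pair of the 18 would be Cox5b at 47.0 and Cox6c at 31.1 CPM per kilobase. Per kilobase of merged exons the ATP synthase alpha and beta subunits, which form the catalytic head, had the highest levels of all members. Atp5a1 reached 324 and Atp5b 278 CPM per kilobase in WT lungs. In complex I the highest levels belonged to Ndufa4, at 122 CPM per kilobase, and Ndufa2, at 119 CPM per kilobase. Ndufa4 is named as a complex I subunit and is now known as a subunit of complex IV. In complex III, Uqcr10 and Uqcrh led at 139 and 128 CPM per kilobase, and in complex II, Sdhd, one of its membrane anchors, led at 101 CPM per kilobase. Merged exons lengthen a gene with rarely used exons, so this order depends on the length used. Per kilobase of the longest protein-coding transcript, Atp5b stood at 614, Atp5g3 at 385 and Atp5a1 at 380 CPM in WT lungs. By that length Ndufa7, at 142, passed Ndufa2, at 119. Uqcrh, at 291, passed Uqcr10, at 188, and Sdhb, at 106, passed Sdhd, at 101.

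Some tissue-restricted isoforms of complex IV stood at the bottom. Cox4i2 and Cox6b2 stood higher, at WT means of 22.2 and 10.01 CPM per kilobase. Cox6a2, Cox8b, Cox7b2 and Cox8c, which are forms of heart, skeletal muscle or testis, did not reach the minimum count for testing, with WT means of 0.393, 0.179, 0.0649 and 0.0142 CPM per kilobase. Their ubiquitous counterparts Cox6a1 and Cox8a stood at 185 and 219 CPM per kilobase. Atp5l, which encodes the g subunit of the ATP synthase membrane part, was also low, with 25 to 52 counts per lung, at 0.147 CPM per kilobase. It has 4 processed copies that match it at 97.7% to 100% over about 57% of its longest protein-coding transcript, and the treatment of reads matching several places is not stated in the labels or headers.

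**Figure D1:**
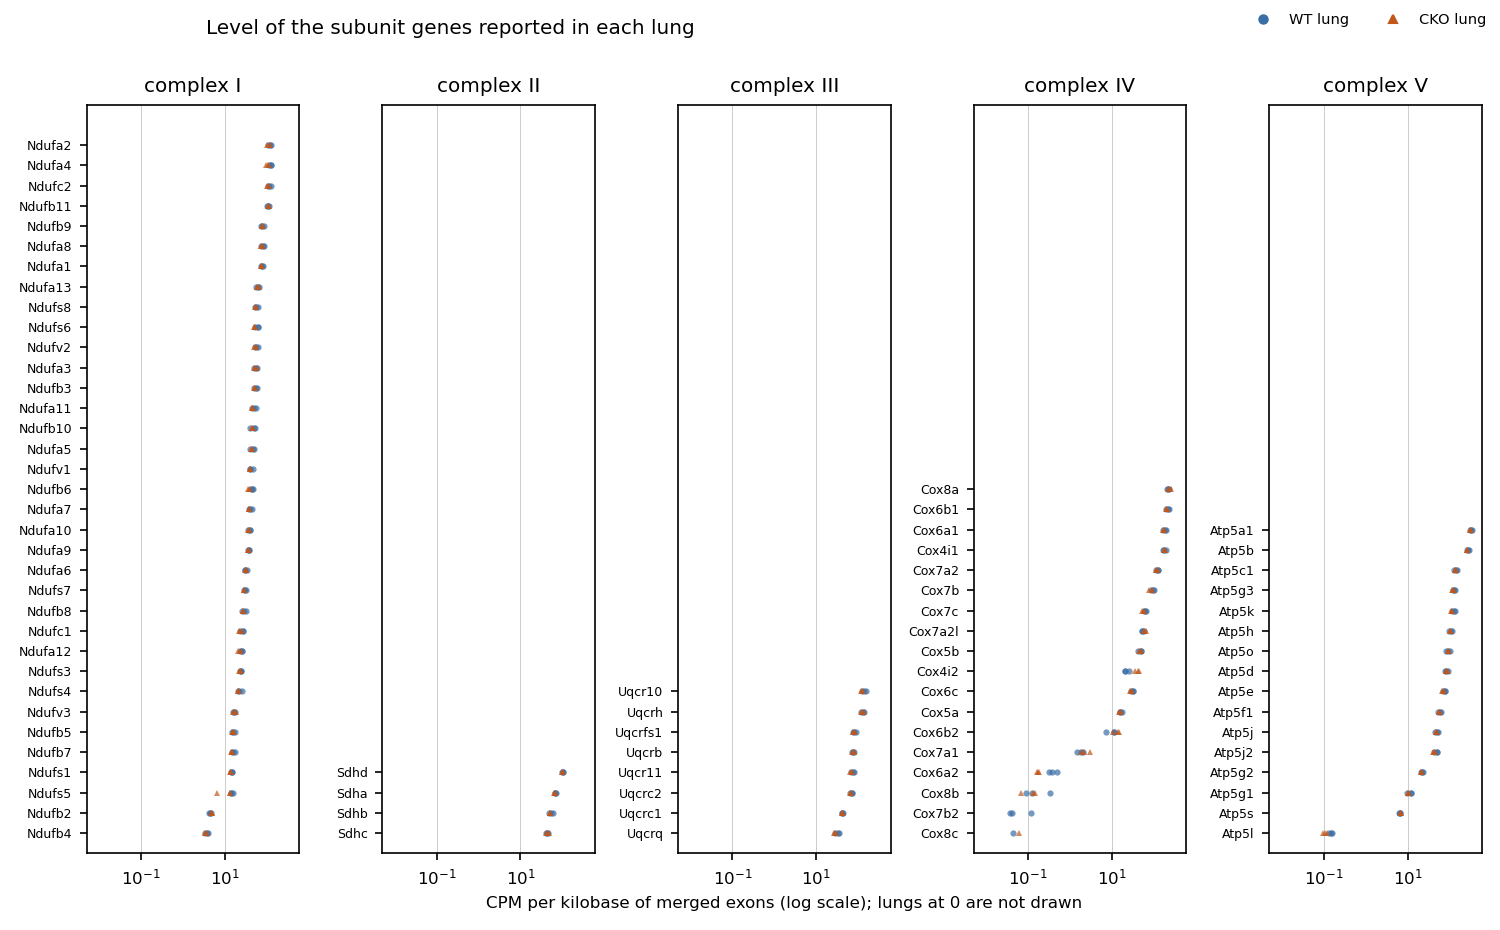
Level of the subunit genes reported here in each lung, as CPM per kilobase of merged exons on a logarithmic axis, with 1 panel per complex. Circles are the 3 WT and triangles the 3 CKO lungs. For most genes the symbols of all lungs lie on top of each other, and genes with visible separation include Cox4i2, Cox6a2 and the single low triangle of Ndufs5.

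The comparison of CKO with WT lungs asked whether the subunit genes changed with the loss of Tgfbr2 in lung mesenchyme. Of the 82 members 78 were tested, 1 of these rose in CKO lungs, 0 fell and 77 did not pass (edgeR quasi-likelihood test, adjusted p under 0.05 over all 17843 tested genes). Over all tested genes 8.71% were called, 5.64% higher and 3.08% lower. An unadjusted p under 0.05 was reached by 6 members, against 25.4% of all tested genes. DESeq2 called 1 member lower, and 1027 of all 17843 tested genes. The member that rose was Cox4i2, in complex IV. By complex, 0 of 36 tested members were called in complex I, 0 of 4 in complex II, 0 of 8 in complex III, 1 of 14 in complex IV and 0 of 16 in complex V.

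A p that misses the threshold does not show that a gene was unchanged, but the intervals of most members were narrow. The 95% interval of the fold change lay within 1.5-fold in either direction for 73 of the 78 tested members, against 61.4% of all tested genes. The 5 members whose interval reached past 1.5-fold were Ndufs5, Cox4i2, Cox6b2, Cox7a1 and Atp5l. The direction leaned to lower values in CKO lungs: 63 of the 78 log2 fold changes were negative, against 51.1% of all tested genes, with a median of -0.06 against -0.0046. The medians were -0.06 in complex I, -0.02 in complex II, -0.05 in complex III, -0.02 in complex IV and -0.05 in complex V. The CPM ranges of the groups were apart for 5 members, or 6.41% of those tested, against 29.9% of all tested genes: Ndufs5, Ndufb6 and Atp5l were lower, and Cox4i2 and Atp5s higher, in every CKO lung than in every WT lung.

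**Figure D2:**
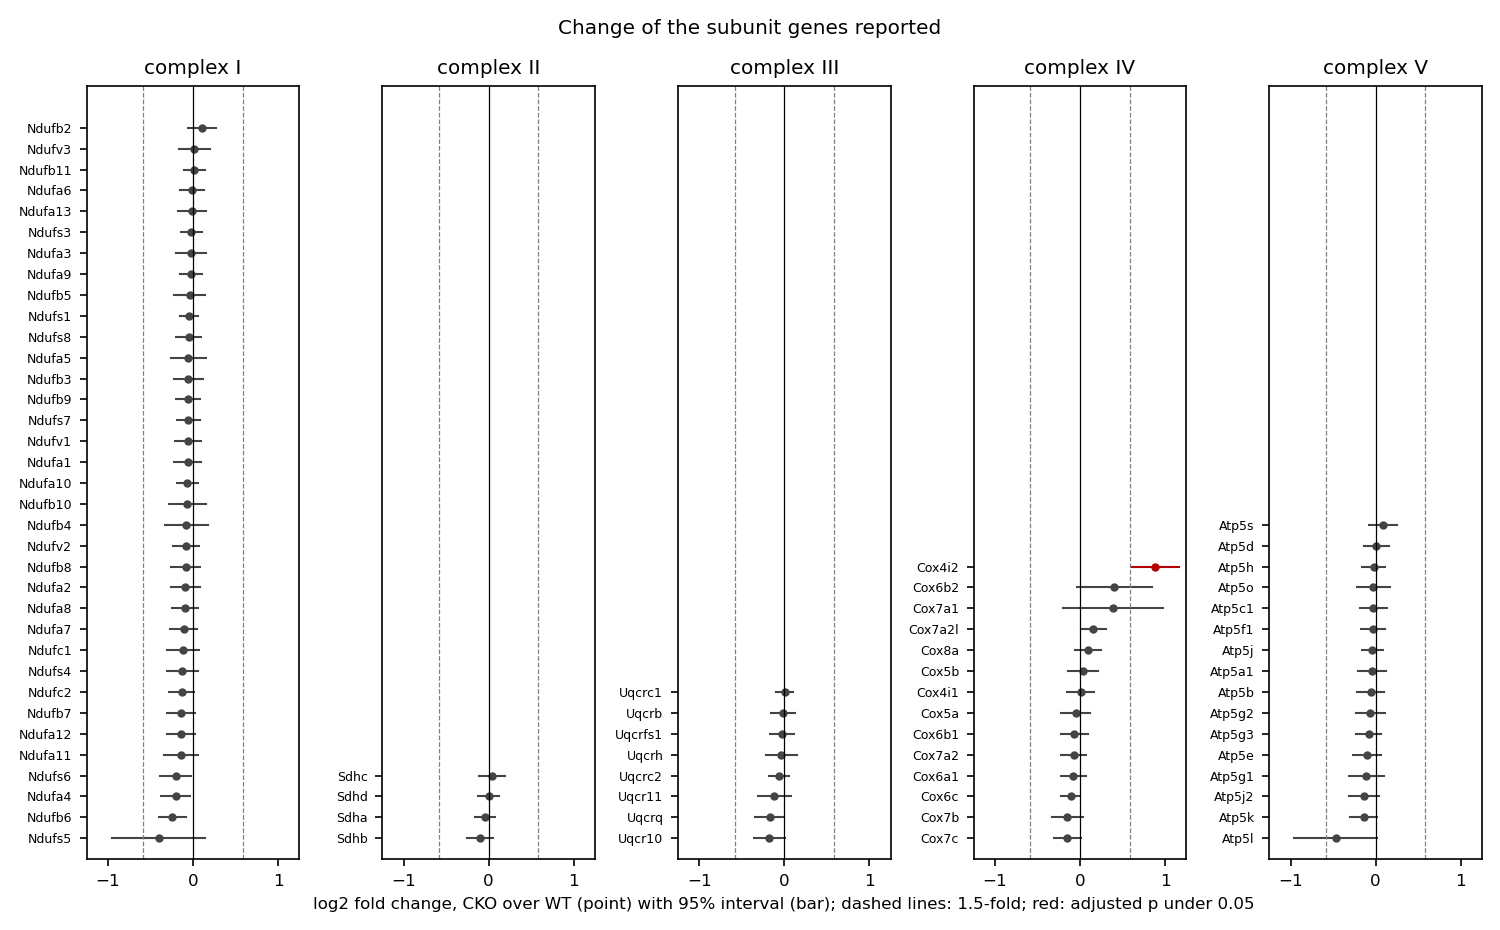
Log2 fold change of CKO over WT for the tested subunit genes reported here with its 95% interval, with 1 panel per complex and dashed lines at 1.5-fold. Cox4i2, in red, is the gene with an adjusted p under 0.05, at 0.88, and the wide intervals are those of Ndufs5, Cox6b2, Cox7a1 and Atp5l.

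The members moved together from lung to lung, which is also what the summed levels showed. Over all members the summed level was 10102, 9656 and 8902 CPM in WT lungs 1 to 3 and 9149, 9561 and 8968 CPM in CKO lungs 1 to 3. WT lung 1 was the highest and WT lung 3 the lowest of the 6 lungs, and the CKO lungs lay between them. WT lung 1 held the highest value of all lungs for 54 of the 78 tested members, WT lung 3 the lowest WT value for 73, and CKO lung 2 the highest CKO value for 62. The subunits encoded in mitochondrial DNA spread the same way, with sums of 20180, 18472 and 16557 CPM in WT and 18376, 18917 and 18075 CPM in CKO lungs. The lean to negative fold changes therefore rested partly on single lungs: the median over the members was -0.01 without WT lung 1, -0.03 without CKO lung 3 and -0.10 without WT lung 3.

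**Figure D3:**
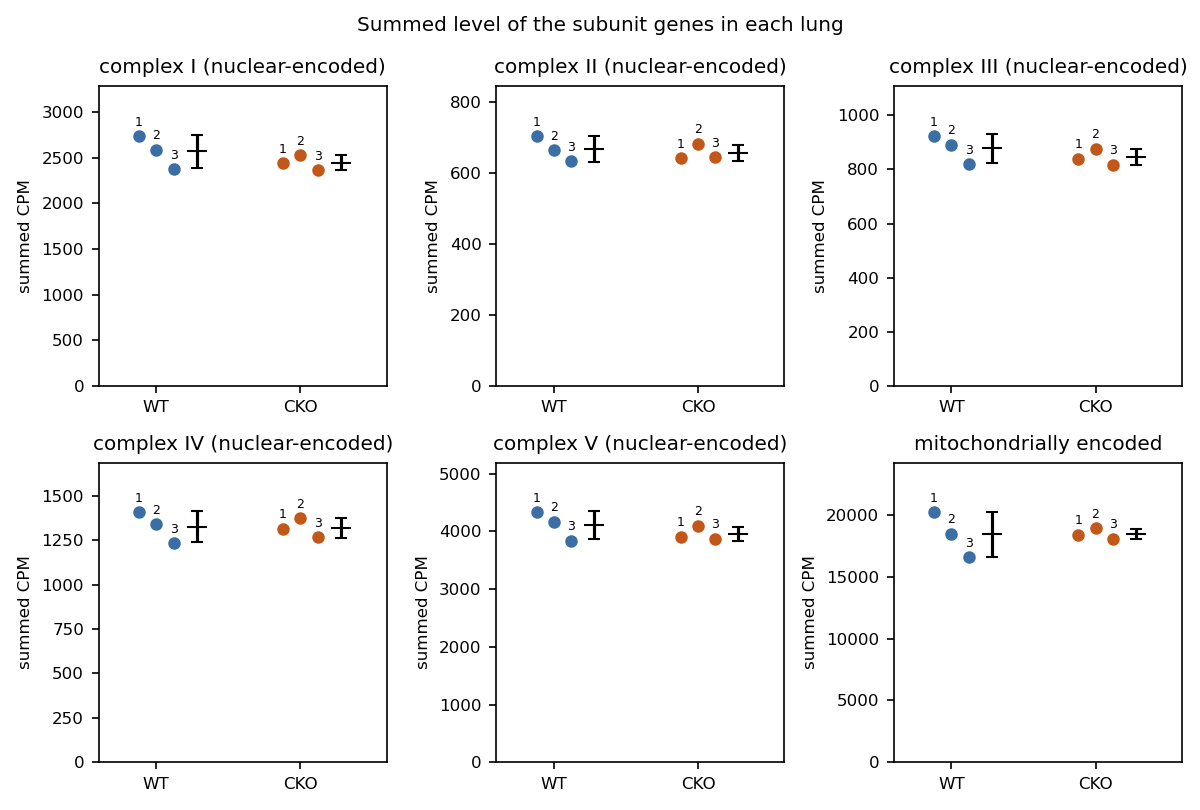
Summed CPM of the nuclear-encoded subunit genes of each complex, and of the mitochondrially encoded subunits, in each lung. Points are lungs with their replicate number, and bars give the mean and SD of the 3 lungs of a group. In each panel the CKO lungs fall between WT lung 1 and a value close to or above WT lung 3.

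Complex I takes electrons from NADH. Its hydrophilic catalytic core, which holds the flavin and iron-sulphur clusters, includes the products of Ndufs1, Ndufs3, Ndufs7, Ndufs8, Ndufv1 and Ndufv2. The log2 fold changes of these 6 genes ran from -0.08 to -0.02, with 0 called. Their summed level was 560 CPM in WT lung 1, 521 in WT lung 2 and 494 in WT lung 3, and 506, 513 and 497 CPM in the CKO lungs, so the CKO lungs lay inside the WT range. Among the accessory subunits, which surround that core, Ndufb6 of the membrane arm had the smallest p. Ndufb6 measured 29.4, 30.3 and 27.7 CPM in WT and 24.5, 25.8 and 23.7 CPM in CKO lungs. Every CKO lung was below every WT lung, and the log2 fold change of -0.24 ± 0.07 (SE) had an adjusted p of 0.0639 (edgeR). Ndufb6 is the member that DESeq2 called lower, with an adjusted p of 0.0338.

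Ndufa4 measured 180, 172 and 153 CPM in WT and 147, 156 and 135 CPM in CKO lungs. The groups overlapped through WT lung 3 and CKO lung 2, and the log2 fold change was -0.20 ± 0.08 (SE; edgeR adjusted p = 0.141). Ndufs6, an accessory subunit near the NADH-oxidising end, was singled out after its values were seen because leaving out WT lung 3 made it pass. Its levels were 57.2, 55.4 and 47.5 CPM in WT and 47.5, 47.7 and 44.0 CPM in CKO lungs, with a log2 fold change of -0.20 (edgeR adjusted p = 0.159, and 0.0357 without WT lung 3). Ndufa2 and the lowest member, Ndufb4, had log2 fold changes of -0.09 and -0.08 and did not pass (edgeR adjusted p = 0.490 and 0.709).

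Ndufs5 had the largest negative fold change of complex I, and its values show that 1 lung set it. It measured 12.1, 13.3 and 11.9 CPM in WT lungs, 11.3 and 11.3 CPM in CKO lungs 1 and 2, and 5.72 CPM in CKO lung 3. The 5 other lungs lay within a narrow range, and CKO lung 3 stood far below them. The counts of BC002163, the copy shown above, were 0, 3 and 1 in WT lungs and 2, 3 and 295 in CKO lungs, so the copy was counted in CKO lung 3 alone beyond a few reads. Added together, Ndufs5 and BC002163 measured 12.1, 13.4 and 11.9 CPM in WT and 11.3, 11.3 and 12.7 CPM in CKO lungs. On the sum, CKO lung 3 was the highest of its group, and the log2 fold change moved from -0.40 ± 0.24 to -0.08 ± 0.09 (SE; edgeR adjusted p = 0.329 and 0.638).

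Complex II is encoded wholly in the nucleus and is also an enzyme of the tricarboxylic acid cycle. Its catalytic subunit Sdha, which carries the flavin, measured 293, 277 and 271 CPM in WT and 271, 280 and 268 CPM in CKO lungs. Sdhb, the iron-sulphur subunit, had the most negative log2 fold change of the 4, at -0.10 ± 0.07 (SE; edgeR adjusted p = 0.415). The membrane anchors Sdhc and Sdhd had log2 fold changes of 0.04 and of under 0.01 in size. All 4 intervals lay within 1.5-fold.

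Complex III carries electrons from ubiquinol to cytochrome c. Its core proteins Uqcrc1 and Uqcrc2 and the Rieske iron-sulphur subunit Uqcrfs1 had log2 fold changes from -0.06 to 0.01. The small subunits Uqcr10 and Uqcrq had the smallest p of the complex. Uqcrq measured 62.7, 59.8 and 52.3 CPM in WT and 53.2, 52.0 and 49.8 CPM in CKO lungs. WT lungs 1 and 2 were above all others, while WT lung 3 fell among the CKO lungs. The log2 fold change was -0.17 ± 0.07 (SE) with an edgeR adjusted p of 0.190, and 0.0406 without WT lung 3. Uqcr10, with a mean of 81.4 ± 8.39 CPM in the WT group against 71.9 ± 3.28 in the CKO group (SD, n = 3 each), had a log2 fold change of -0.18 (edgeR adjusted p = 0.203). Uqcrh, the hinge protein that helps dock cytochrome c, had one of -0.03 (edgeR adjusted p = 0.829).

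Complex IV showed the one call. Its subunit 4 occurs as the ubiquitous isoform Cox4i1 and as Cox4i2, an isoform known from adult lung and induced by low oxygen in cultured cells. Cox4i2 lies at chr2:152754173-152765037, plus strand. It measured 16.5, 16.02 and 19.9 CPM in WT and 27.4, 35.5 and 33.6 CPM in CKO lungs. The lowest CKO lung was above the highest WT lung, and CKO lung 1 was the lowest of its group. The rise was 1.84-fold, a log2 fold change of 0.88 ± 0.12 (SE) with an interval of 0.60 to 1.16 and an edgeR adjusted p of 0.00822. In the authors' deposited table the log2 fold change of Cox4i2 was 0.88. Without WT lung 2 the log2 fold change was 0.82 and the edgeR adjusted p 0.0514, just above the threshold, and no member was then called. Over all tested genes 162 of 18120 were then called higher, against 1006 of 17843 with all lungs.

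Cox4i1 did not move with it. It measured 303, 273 and 255 CPM in WT and 280, 281 and 275 CPM in CKO lungs, with a log2 fold change of 0.01 and an interval of -0.15 to 0.17 (edgeR adjusted p = 0.959). Its exons overlap those of Emc8 on the opposite strand. The share of Cox4i2 in the sum of both isoforms per kilobase was 9.69%, 10.3% and 13.3% in WT and 16.1%, 19.9% and 19.4% in CKO lungs. The ranges were apart, and the two-sided exact permutation p was 0.1, the smallest that 3 against 3 lungs can give. With the authors' RPKM in place of this level the difference was 9.74 percentage points, against 7.34 here, and with the length of the longest protein-coding transcript it was 4.50.

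Markers of other cells moved between the groups beside Cox4i2, and their part in its rise was not tested. Over all tested genes, 5.64% were called higher and 3.08% lower. Of 8 pericyte genes, 0 were called, with a median log2 fold change of 0.24 and a summed level of 503 to 602 CPM in WT and 588 to 611 CPM in CKO lungs. Smooth muscle genes were lower, with 3 of 8 called lower and 1 higher and sums of 1126 to 1205 CPM in WT and 479 to 834 CPM in CKO lungs. Endothelial genes were higher, with 4 of 5 called and sums of 1010 to 1101 against 1243 to 1407 CPM. Red blood cell genes were higher, with 4 of 9 called and sums of 1490 to 1792 against 2392 to 3314 CPM, and 3 of 5 macrophage and leukocyte genes were called higher, with sums of 98.9 to 101 against 117 to 198 CPM. Of 7 epithelial genes 2 were called lower (sums of 1763 to 2346 against 1285 to 1644 CPM). Of 7 mesenchymal genes 1 was called higher and 2 lower. Their sums were 2012 to 2306 against 2346 to 2722 CPM, while their median log2 fold change was -0.03. Of 13 striated muscle genes 1 was called higher (93.2 to 128 against 53.2 to 105 CPM). No tested marker of these lists was at 0 in a lung.

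The other isoform genes of complex IV did not pass. Cox6b2, an isoform known from testis, measured 8.10, 12.5 and 12.7 CPM in WT and 12.004, 15.7 and 16.5 CPM in CKO lungs. Lung 1 was the lowest of each group, and the groups overlapped through it. The log2 fold change was 0.41 ± 0.19 (SE; edgeR adjusted p = 0.228), and the value depended on the fit: it was 0.42 with replicate 1, the lungs with high Xist, as a term (edgeR adjusted p = 0.0243), 0.36 with replicates 2 and 3 alone (0.0524), 0.25 with the proportion of unannotated reads as a term (0.443) and 0.23 without WT lung 1 (0.436). Cox6b1, the ubiquitous form, had a log2 fold change of -0.07 (edgeR adjusted p = 0.580). Cox7a1, the heart and muscle form of subunit 7a, measured 0.800, 0.973 and 1.10 CPM in WT and 1.17, 0.972 and 1.64 CPM in CKO lungs, and its groups overlapped. Its share beside Cox7a2 was 1.45% ± 0.317 in WT and 1.99% ± 0.612 in CKO lungs (SD, n = 3; exact permutation p = 0.2). The share of Cox6a2 beside Cox6a1 was 0.214% ± 0.0617 in WT and 0.0982% ± 0.00908 in CKO lungs (SD, n = 3; exact permutation p = 0.1), on very few counts.

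**Figure D4:**
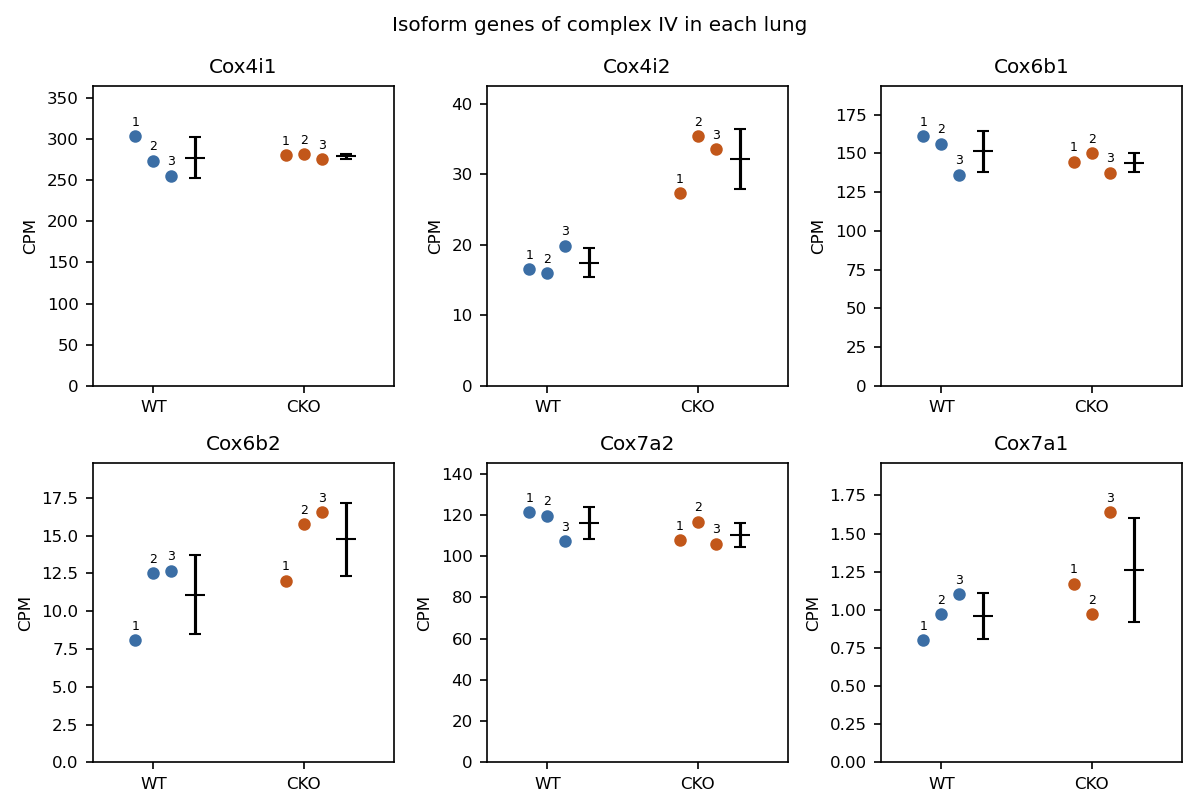
CPM of 3 ubiquitous isoform genes of complex IV (Cox4i1, Cox6b1, Cox7a2) and their alternative isoforms (Cox4i2, Cox6b2, Cox7a1) in each lung, with axes that start at 0. Points are lungs with their replicate number, and bars give mean and SD of 3 lungs. The 3 CKO values of Cox4i2, 27.4 to 35.5, all lie above the WT values, 16.02 to 19.9, and the points of the other genes overlap.

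Cox7a2l was slightly higher in CKO lungs by its own counts, at 85.9, 79.001 and 77.1 CPM in WT and 87.9, 96.2 and 85.7 CPM in CKO lungs. WT lung 1 fell just above the lowest CKO lung, and the log2 fold change was 0.16 ± 0.06 (SE; edgeR adjusted p = 0.167). Its copy Gm6969 had 259, 415 and 341 counts in WT and 6, 10 and 6 counts in CKO lungs. The log2 fold change was -5.40 (edgeR adjusted p = 6.63e-05), and the reads assigned to this pseudogene did not overlap between the groups. Whether the groups differed in strain alleles was not tested. For this or any other gene, these counts cannot tell such a difference from an effect of Tgfbr2 loss. Added together, Cox7a2l and Gm6969 measured 94.2, 87.1 and 84.6 CPM in WT and 88.1, 96.5 and 85.8 CPM in CKO lungs. The groups overlapped, and the log2 fold change of the sum was 0.02 ± 0.06 (SE; edgeR adjusted p = 0.852). Of the 82 members 14 have 19 such copies in the annotation (at least 97% identity over at least 150 bases), and of these Gm6969 and BC002163 are the 2 with 100 or more counts in any lung. A copy with few counts may still lower the count of its member, since the treatment of reads matching several places is not stated. Ndufb4, for instance, has the copy Ndufb4c at 100% identity over 390 bases.

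**Figure D5:**
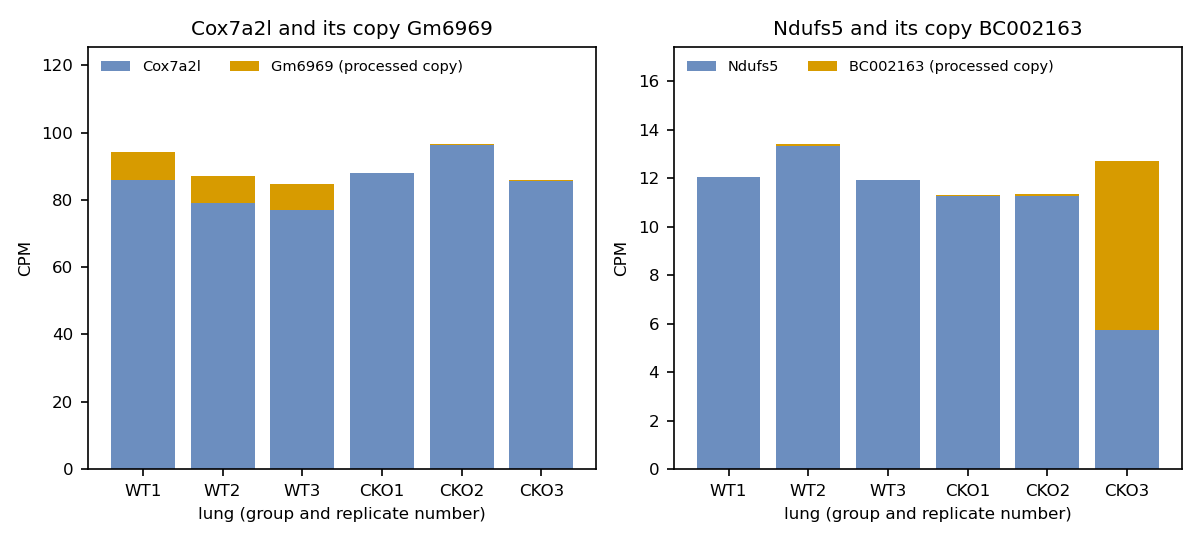
CPM of Cox7a2l and Ndufs5 in each lung, stacked with those of their processed copies Gm6969 and BC002163, with axes that start at 0. The copy adds about 8 CPM to Cox7a2l in the 3 WT lungs and 7.01 CPM to Ndufs5 in CKO lung 3, and the stacked heights of the groups overlap.

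The remaining complex IV genes were close to level. The ubiquitous isoforms Cox4i1, Cox6a1, Cox6b1, Cox7a2, Cox7b and Cox8a had log2 fold changes from -0.15 to 0.09. The subunits without a tissue isoform, Cox5a, Cox5b, Cox6c and Cox7c, ran from -0.15 to 0.03, and 0 of these 10 genes were called. Cox7b was the lowest of the ubiquitous isoforms at -0.15 ± 0.08 (SE; edgeR adjusted p = 0.285), and Cox8a the highest at 0.09 ± 0.07 (SE; edgeR adjusted p = 0.448).

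In the ATP synthase, the genes of the F1 part (Atp5a1, Atp5b, Atp5c1, Atp5d and Atp5e) had log2 fold changes from -0.10 to 0.01, and those of the peripheral stalk (Atp5f1, Atp5h, Atp5j and Atp5o) from -0.04 to -0.02. Atp5b measured 1216, 1194 and 1118 CPM in WT and 1139, 1136 and 1109 CPM in CKO lungs, and its groups overlapped through WT lung 3 (log2 fold change -0.06, edgeR adjusted p = 0.633). The c ring that carries the protons is made of a protein encoded by 3 genes with the same mature product, Atp5g1, Atp5g2 and Atp5g3. Atp5g1 took 6.997% ± 0.424 of their summed level per kilobase in WT and 6.89% ± 0.0457 in CKO lungs (SD, n = 3; exact permutation p = 0.9). The difference of -0.103 percentage points was smaller in size than the SD of the WT lungs, though not than that of the CKO lungs. This difference was 0.0469 without WT lung 1 and -0.346 without WT lung 3. Atp5k, the e subunit, had a log2 fold change of -0.14 ± 0.07 (SE; edgeR adjusted p = 0.231, and 0.0428 without WT lung 3).

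Atp5l measured 0.864, 1.01 and 0.970 CPM in WT and 0.623, 0.675 and 0.760 CPM in CKO lungs. The groups did not overlap, the log2 fold change was -0.47 ± 0.21 (SE; edgeR adjusted p = 0.207), and the value rests on few counts. Atp5s, also called factor B, measured 13.2, 12.9 and 13.3 CPM in WT and 13.95, 14.1 and 13.6 CPM in CKO lungs. Its groups lay apart by a small step, a log2 fold change of 0.08 ± 0.07 (SE; edgeR adjusted p = 0.517).

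Genes that work with the subunits were read from the same fit, in which 8.71% of all tested genes were called. Of the 13 subunits encoded in mitochondrial DNA, 7 were tested and 0 were called, with log2 fold changes from -0.07 (mt-Nd1) to 0.05 (mt-Nd5). The other 6 could not be followed: mt-Co2, mt-Co3, mt-Atp6, mt-Atp8 and mt-Nd4l were listed at 0 in all lungs, and mt-Nd3 had 10 counts in all. Counts were 0 called of 12 for subunits and partners outside the name patterns, 0 of 15 for complex I assembly factors, 0 of 33 for assembly factors of the other complexes, 0 of 18 for tricarboxylic acid cycle enzymes, 0 of 8 for carriers and porins, and 0 of 76 for mitochondrial ribosomal proteins. The last list had a median log2 fold change of -0.10. Cycs, cytochrome c itself, was nearest the threshold among the partners, at 32.4, 30.9 and 26.7 CPM in WT and 25.2, 24.9 and 23.8 CPM in CKO lungs. All CKO lungs were below all WT lungs, with a log2 fold change of -0.28 ± 0.08 (SE; edgeR adjusted p = 0.0759).

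Of all tested genes, 5.64% were called higher and 3.08% lower. Among 23 regulators of mitochondrial biogenesis 1 rose and 0 fell. It was Esrrg, an orphan nuclear receptor known to act on oxidative metabolism genes in heart and muscle, at 2.02, 1.77 and 1.96 CPM in WT and 4.78, 18.5 and 20.1 CPM in CKO lungs. CKO lung 1 rose far less than CKO lungs 2 and 3, and the log2 fold change was 2.92 ± 0.49 (SE; edgeR adjusted p = 0.0158). Pprc1, a coactivator of the same family as PGC-1 alpha, had a log2 fold change of -0.19 ± 0.05 (SE; edgeR adjusted p = 0.0688).

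The promoters of the members were searched for the letters of known motifs, as a description. Whether these motifs have a part in the shared movement from lung to lung was not tested. The RefSeq table (GRCm38.p6) holds 71 promoters of 66 members, each 250 bases before to 50 after the start, and Cox4i1 and Cox4i2 are not among them. Both strands were searched. The NRF1 motif, a 10-letter palindrome that appears in capitals in the sequences that follow, was in 7.04% of member promoters and 0.971% of all 32851 promoters. The ETS motif CCGGAAG was in 22.5% against 8.86%, the YY1 motif AAGATGGCG in 9.86% against 1.40%, and the estrogen-related receptor motif TCAAGGTCA in 2.82% against 0.423%. The cyclic AMP response element TGACGTCA was in 5.63% against 1.79%, and the SP1 motif GGGCGG in 38.0% against 35.7%. A match describes letters, not binding. The pair of members whose 300 bases hold both the NRF1 and the ETS letters are shown, as the 250 bases before the start with the motif letters in capitals, at chr5:115348959-115349208 for Cox6a1 and chr5:108434400-108434649 for Atp5k, both on the minus strand. The ETS match of Atp5k lies at bases 13 to 19 after the start and is not shown.
Cox6a1: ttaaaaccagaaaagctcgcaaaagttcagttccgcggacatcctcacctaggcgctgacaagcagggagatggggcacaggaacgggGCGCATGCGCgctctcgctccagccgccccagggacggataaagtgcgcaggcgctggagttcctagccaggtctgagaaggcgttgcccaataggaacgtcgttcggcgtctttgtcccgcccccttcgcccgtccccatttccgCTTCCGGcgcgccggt
Atp5k: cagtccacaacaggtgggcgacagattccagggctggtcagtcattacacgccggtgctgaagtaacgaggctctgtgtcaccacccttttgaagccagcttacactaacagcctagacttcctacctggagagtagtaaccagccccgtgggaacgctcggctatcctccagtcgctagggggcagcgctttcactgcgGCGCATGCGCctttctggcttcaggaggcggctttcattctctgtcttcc
Neither gene was called between the groups: Cox6a1 measured 141, 130 and 120 CPM in WT and 123, 127 and 120 CPM in CKO lungs (log2 fold change -0.08, edgeR adjusted p = 0.491), and Atp5k is given above.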

How the data were processed

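The deposited counts per gene and run were made by the authors with cutadapt 1.13, Trimmomatic 0.35, STAR 2.5.2b and HTSeq 0.6.1p2 on GRCm38, per the submitters' processing notes, and GENCODE M8, per the file headers. The labels and headers do not say whether strand was used in counting, and the exons of 16 members overlap a gene of at least 10 CPM. RPKM values, which divide by gene length and library size, were deposited by the authors beside the counts. The authors' deposited comparison table gives log2 fold changes and p-values from edgeR 3.16.5; its 24 per-sample columns were not used. Reads outside annotated features come from a deposited table of counts.

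Here the 2 runs of a lung were summed and 92 spike-ins left out. edgeR 4.0.16 (TMM, filterByExpr with a minimum count of 10, quasi-likelihood F test) was fitted over all genes in R 4.3.3, with Benjamini-Hochberg adjustment, and tested on simulated data. DESeq2 1.42.0, limma-voom 3.58.1 and other settings were alternatives. Copies were found with BLAST 2.17.0 against GENCODE M21 transcripts. The members and lists were chosen with earlier results of these data known. Named members are those called; in each complex the 2 highest and the lowest per kilobase and the 2 with the smallest p; and isoform sets. Other lists give up to 3 genes. Ndufs5, Ndufs6, Atp5s, Gm6969 and BC002163, and the grouping by role, were chosen after values were seen. Read depth is high, so precision rests on the 3 lungs per group. One member enters the counts and sums over members but is not reported here by itself.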

Additional observations from a re-analysis of the deposited data

How the results depend on the processing

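Among the alternatives run, Cox4i2 kept its direction in all and its call in all but the one without WT replicate 2, with log2 fold changes of 0.76 to 0.99. Over 529 alternatives for 31 named members, 502 kept direction and side of the threshold, 6 passed it newly, 1 no longer passed and 20 changed sign without a call. The number of members called higher was 2 with the replicate 1 indicator as a term and 0 to 1 with lungs left out in turn. The number called lower was 1 with DESeq2 and 0 to 3 with lungs left out. The 3, without WT replicate 3, were Ndufs6, Uqcrq and Atp5k. Calls over all tested genes moved too. Lower calls were 549 of 17843 in the main fit, 1027 of 17843 with DESeq2 and 813 of 18121 without WT replicate 3. Higher calls were 1006 in the main fit, 1195 with the replicate 1 indicator and 162 of 18120 without WT replicate 2. The cause of these shifts was not tested. The difference in the Cox4i2 share was 9.74 percentage points with the authors' RPKM and 4.50 with transcript length, added after seeing the data, and that of Cox6a2 was -0.226 with RPKM; the lengths used differ between these. The median over members ran from -0.0958 to -0.0104.

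The replicate numbers of the groups are shared, and the deviations of same-numbered lungs correlated at 0.102, 0.0887 and 0.0365. Each WT lung correlated best with the CKO lung of its own number. These values do not settle whether the numbers pair the lungs. Replicate 1 of both groups also shared high Xist counts, and the main fit held no replicate term. With the replicate block 2 members were called higher, Cox4i2 and Cox6b2, and Sdhd had a log2 fold change of 0.000234.

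Sign changes of log2 fold changes, none in a called gene, were as follows. Sdhd was at 0.00135 with DESeq2 size factors, 0.0185 with no scaling factor, 0.00151 with DESeq2, 0.000527 with limma-voom, 0.0355 with the run of 17Feb16 alone, 0.000385 with the replicate 1 indicator, 0.0467 with replicates 2 and 3 only, and -0.0299 to 0.0370 with lungs left out. Uqcrh was at 0.0396 and Atp5a1 at 0.0160 with replicates 2 and 3 only, and Atp5g2 at 0.0313 with the run of 17Feb16 alone. With lungs left out, Uqcrh ran from -0.0956 to 0.0246, Cox4i1 from -0.0399 to 0.0826 and Sdhc from -0.0121 to 0.102. Among the isoform shares, the difference also changed sign for Atp5g1, which ran from -0.346 to 0.0469 percentage points, and for Cox8b, from -0.0543 to 0.00153.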

Other observations

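Over the other 2 genes of the c ring set, which the text above gives as a share, Atp5g2 measured 40.0, 37.9 and 34.2 CPM in WT and 37.5, 35.5 and 34.3 CPM in CKO lungs, and Atp5g3 measured 287, 289 and 259 CPM in WT and 259, 277 and 251 CPM in CKO lungs. Both sets of lungs overlapped. Ndufa4l2, a relative of Ndufa4 that is known to be induced by low oxygen and to mark pericytes, measured 11.3, 9.52 and 15.3 CPM in WT and 12.6, 19.5 and 14.4 CPM in CKO lungs, and these groups overlapped as well (edgeR adjusted p = 0.331).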
